A study of Sus scrofa with 12 samples.

Results

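The enzymes described here make androgens and estrogens from the products of progesterone synthesis, or carry electrons for those steps, or interconvert active and inactive steroids. The members were 10 genes given by symbol (CYP17A1, CYP19A1, HSD17B1, HSD17B4, HSD17B12, SRD5A1, CYB5A, POR, HSD11B1 and HSD11B2), and all 10 were found among the 29884 gene names of the deposited table. They were read in the left ovaries of 6 sows (Sus scrofa) from 1 commercial piggery, killed 4 days after their delivery number 4. The small litter size group (SLS) held ovaries ZD2, ZD3 and ZD12 from sows with 8.48 ± 0.53 piglets per litter, and the large litter size group (LLS) held ZD5, ZD7 and ZD8 from sows with 16.19 ± 0.43 piglets per litter. The labels give neither treatment nor breed, and a whole ovary mixes corpora lutea, follicles, stroma and vessels. Each ovary gave 1 library of total RNA without ribosomal RNA, so that the p-values below measure the spread between 3 sows per group.

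Androgens and estrogens are known to be made in the ovary by neighbouring cells in turn. Theca cells convert C21 steroids to androgens with CYP17A1, which needs electrons from POR and whose lyase step is aided by CYB5A. Granulosa cells convert these androgens to estrogens with aromatase, a CYP19 enzyme, and HSD17B1 turns estrone into the more active estradiol. Luteal cells of the corpus luteum are known mainly for progesterone, made with STAR, CYP11A1 and HSD3B1.

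The libraries held between 32272803 and 60903268 reads, as recovered from the FPKM values (reads scaled by transcript length and library size). ZD8, an LLS ovary, was the shallowest library and stood apart from the rest. The summed level of 7 luteal marker genes was 124 FPKM in ZD8 and 9167 to 12190 FPKM in the rest, with 6 of the 7 genes lowest in ZD8. The oocyte list had its highest summed level in ZD8 (123 FPKM, against 6.29 to 22.5 FPKM), with FIGLA at 0 in ZD2, ZD5 and ZD7, and ZP2 at 0 in ZD3 and ZD7. Among 5 theca genes, 3 were highest in ZD8, with INSL3 at 298 FPKM against 2.28 to 45.1 FPKM. The part of cell makeup in the differences below was not tested, since in whole tissue fewer cells of a type and less RNA per cell cannot be told apart. Fold changes of the members are therefore given with and without ZD8.

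CYP17A1 (chromosome 14, 113805616 to 113820445, minus strand of Sscrofa11.1) is the enzyme that opens the way from progestins to androgens. Its level was 10.4, 9.12 and 29.4 FPKM in ZD2, ZD3 and ZD12 of SLS, and 7.27, 7.02 and 117 FPKM in ZD5, ZD7 and ZD8 of LLS. ZD8 was the highest of the 6 ovaries and 3.99 times the next, ZD12, while ZD5 and ZD7 were the lowest. The groups thus overlapped, with 16.3 ± 11.4 FPKM in SLS and 43.8 ± 63.5 FPKM in LLS (SD, n = 3 ovaries each). Fold changes below are LLS minus SLS on the log2(FPKM + 1) scale. For CYP17A1 limma put this value at 0.39 (SE 0.99, adjusted p = 0.999), and at -0.90 (SE 0.43, adjusted p = 0.910) without ZD8. In that smaller comparison both LLS ovaries were below the 3 SLS ovaries. The theca marker INSL3 was likewise highest in ZD8 and next in ZD12 (45.1 FPKM), whereas ANPEP and RAMP2 of the same list were highest in neither, and their part in the level of CYP17A1 was not tested. CYP17A1 shares 139 exon bases with BORCS7 on the other strand, which was at 4.30 to 10.03 FPKM.

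**Figure D1:**
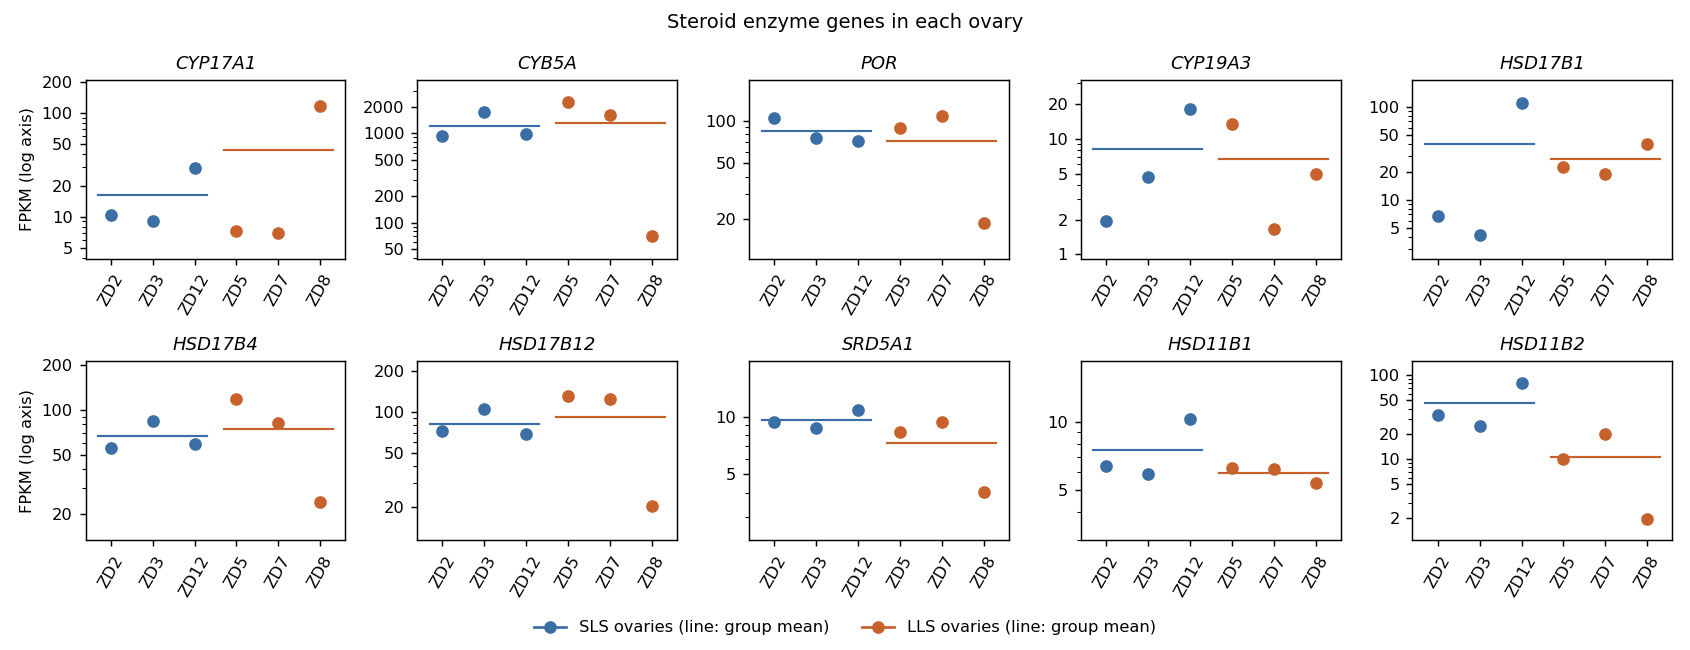
FPKM (log axis) of CYP19A3 and of 9 members in each of the 6 ovaries, where points are ovaries, blue for SLS and orange for LLS, and lines are group means. ZD8 is the highest ovary for CYP17A1 (117 FPKM) and the lowest for 7 of the 9 members, and for HSD11B2 the 3 orange points lie below the 3 blue ones. CYP19A1 is left out because it is listed at 0 in 5 ovaries.

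The redox partners of CYP17A1 did not share its pattern. CYB5A, cytochrome b5, which raises the lyase activity of CYP17A1, lies on chromosome 1 (149737584 to 149773222, plus strand). CYB5A was at 923, 1738 and 980 FPKM in ZD2, ZD3 and ZD12, and at 2221, 1588 and 70.2 FPKM in ZD5, ZD7 and ZD8. It was the most abundant member in 5 of the ovaries and second to CYP17A1 in ZD8, where it was 13.2 times below the lowest of the others. In ZD5 alone CYB5A took 220646 reads, 0.383% of the library. POR, the flavoprotein that feeds electrons to microsomal P450 enzymes, lies on chromosome 3 (10212734 to 10272184, minus strand). POR was at 104, 75.2 and 71.2 FPKM in the SLS ovaries and at 88.3, 108 and 18.7 FPKM in ZD5, ZD7 and ZD8. It was thus nearly level in 5 ovaries, whose highest was 1.52 times their lowest, and ZD8 was 3.81 times below the lowest of them.

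Neither partner passed the test between litter size groups. CYB5A had a log2 fold change of -0.88 (SE 1.23, limma adjusted p = 0.999) with all ovaries and of 0.69 (SE 0.42, adjusted p = 0.9996) without ZD8. POR had one of -0.53 (SE 0.61, limma adjusted p = 0.999), which turned to 0.24 (SE 0.27, adjusted p = 0.9996) without ZD8. For both genes the direction thus changed when 1 ovary was left out.

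Ratios within an ovary do not move with a scale factor of the library. CYP17A1 amounted to 0.00556, 0.00585 and 0.0187 times the FPKM of CYP11A1, the side-chain cleavage enzyme that starts steroid synthesis, in ZD2, ZD3 and ZD12, and to 0.00494 and 0.00430 times in ZD5 and ZD7. In ZD8 the FPKM of CYP17A1 was 5.57 times that of CYP11A1, which was at 21.0 FPKM there and at 1470 to 1863 FPKM in the other ovaries. The ratio of CYB5A to CYP17A1 was 89.1, 191 and 33.4 in the SLS ovaries and 306, 226 and 0.599 in ZD5, ZD7 and ZD8. The ratio of POR to CYP17A1 was 10.1, 8.25 and 2.42 in SLS and 12.2, 15.4 and 0.159 in ZD5, ZD7 and ZD8. ZD8 was therefore the only ovary of the 6 in which CYP17A1 exceeded CYP11A1, CYB5A and POR. Between the groups, none of these 3 ratios passed a test (exact permutation test on log2 ratios of FPKM + 1, two-sided, p = 1 for each). Without ZD8 all 3 SLS ovaries lay on one side of both LLS ovaries for each ratio, and the exact p of 0.2 is the smallest that 3 ovaries against 2 allow.

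Aromatase is encoded in the pig by CYP19A1, CYP19A2 and CYP19A3, which lie side by side on the plus strand of chromosome 1. CYP19A1 (120596235 to 120627806) is the member, CYP19A3 (120476890 to 120556103) lies before it and CYP19A2 (120652172 to 120695899) after it. Their coding sequences are close copies. CYP19A1 and CYP19A3 were identical at 92.8% of 1506 aligned coding bases, with 109 bases that differ, and CYP19A1 and CYP19A2 at 95.4% of 1512. The stretch of 90 coding bases where CYP19A1 and CYP19A3 differ most, in exon 4 of both, is shown because it tells the 2 genes apart, with the 15 differing bases in capitals. It lies at chr1:120611480-120611569 in CYP19A1 and at chr1:120541700-120541789 in CYP19A3, plus strand, Sscrofa11.1.
CYP19A1: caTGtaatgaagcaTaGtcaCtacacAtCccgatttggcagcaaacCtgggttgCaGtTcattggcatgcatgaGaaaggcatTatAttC
CYP19A3: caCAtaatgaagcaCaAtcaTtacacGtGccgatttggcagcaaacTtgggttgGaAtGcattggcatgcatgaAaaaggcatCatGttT

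The reads on these genes fell almost entirely on CYP19A3. CYP19A1 had 2 reads in ZD5 (0.0137 FPKM, 95% Poisson interval 0.00166 to 0.0496 FPKM, counting error only) and 0 reads in the other 5 ovaries, where 3 reads would be 0.0195 to 0.0367 FPKM. CYP19A2 had 1 read each in ZD2 and ZD8, 2 in ZD5 and 0 elsewhere. CYP19A3 had 329 reads in ZD2, 667 in ZD3 and 2639 in ZD12, and it had 2127 in ZD5, 278 in ZD7 and 440 in ZD8. These are 1.94, 4.64 and 17.9 FPKM in SLS and 13.3, 1.64 and 4.91 FPKM in LLS. ZD12 and ZD5 were the high ovaries, 1 of each group, and the highest was 10.9 times the lowest, ZD7. Windows of 50 transcript bases in CYP19A1 occur unchanged in CYP19A3 for 9.75% and those of 100 bases for 3.78%. For CYP19A1 in CYP19A2 the shares were 24.3% and 20.3%, so that part of the short reads cannot be placed among these genes. How the authors counted reads that fit several genes is not given in the sources used here.

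CYP19A1 did not reach the filter of 1 FPKM in 3 libraries and was not in the fit. CYP19A3 gave a log2 fold change of -0.17 (SE 0.78, limma adjusted p = 0.999) and of -0.15 without ZD8, but 0.57 without ZD12 and 0.43 without ZD7, so that its direction turned with the ovaries kept. The sum over the 3 CYP19 genes, added after the values were seen, gave -0.16 (SE 0.78). The ratio of CYP19A3 to CYP17A1, also chosen after the values were seen, was 0.188, 0.509 and 0.611 in SLS and 1.83, 0.234 and 0.0419 in ZD5, ZD7 and ZD8 (exact permutation p = 0.8, two-sided). Only ZD5 held more aromatase than CYP17A1 transcripts per length. The 8 granulosa markers did not share 1 order over these ovaries, since FSHR, AMH, FOXL2 and GATM were highest in ZD8 while INHA and SERPINE2 were lowest there, and their part in the level of CYP19A3 was not tested.

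**Figure D2:**
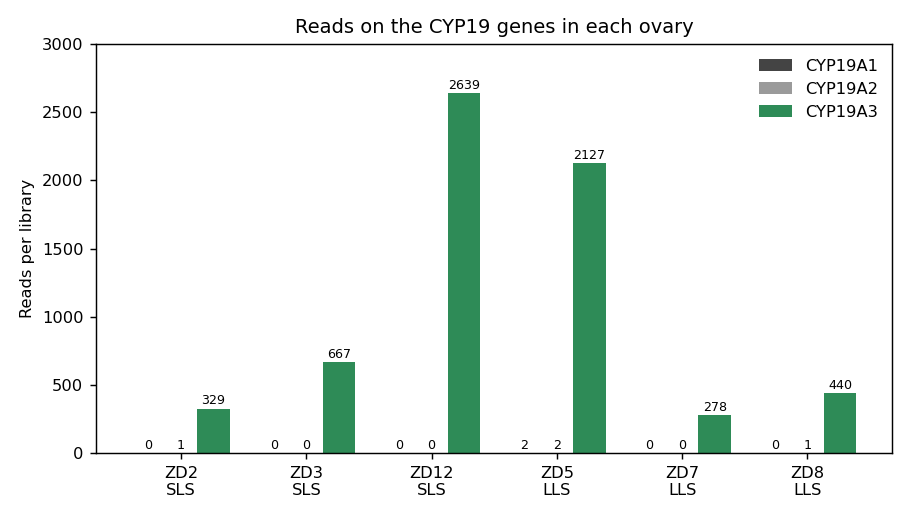
Whole reads recovered for CYP19A1, CYP19A2 and CYP19A3 (bars, from 0) in each of the 6 ovaries, labelled by ovary and group. CYP19A3 holds 278 to 2639 reads per library, and the other genes hold at most 2.

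The 17-beta hydroxysteroid dehydrogenases fell into separate patterns. HSD17B1 (chromosome 12, 20269468 to 20271349, minus strand), which makes estradiol, was at 6.70, 4.18 and 109 FPKM in ZD2, ZD3 and ZD12, and at 22.7, 19.1 and 40.2 FPKM in ZD5, ZD7 and ZD8. The SLS group held both the lowest 2 ovaries and the highest one, and the 3 LLS ovaries lay between them. Its spread over the 6 ovaries (SD of log2(FPKM + 1) 1.60) was larger than that of 99.1% of the 12260 tested genes, and without ZD8 larger than that of 99.9%. Limma gave a log2 fold change of 0.72 (SE 1.02, adjusted p = 0.999), and of 0.41 without ZD8. It was 2.09 without ZD12, the ovary with 109 FPKM (SE 0.43, limma unadjusted p = 0.0013, adjusted p = 1), and -0.11 (SE 1.05) without ZD3, the lowest ovary. Of the 8 granulosa markers INHA, INHBB and SERPINE2 were also highest in ZD12, whereas FSHR, AMH, FOXL2 and GATM were highest in ZD8 and INHBA in ZD7, and their part was not tested.

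HSD17B4 and HSD17B12 were more even than HSD17B1, but not among all genes. Their spread over the 6 ovaries was larger than that of 89.8% and 94.8% of tested genes, and without ZD8 larger than that of 81.0% and 79.6%. HSD17B4 (chromosome 2, 123313445 to 123401386, plus strand), a peroxisomal enzyme of fatty acid oxidation that can also oxidise estradiol, was at 54.9, 84.2 and 59.3 FPKM in the SLS ovaries and at 118, 81.7 and 23.8 FPKM in ZD5, ZD7 and ZD8. HSD17B12 (chromosome 2, 18461487 to 18611761, minus strand), which elongates long-chain fatty acids and can reduce estrone, was at 72.4, 105 and 69.2 FPKM in SLS and at 131, 124 and 20.4 FPKM in ZD5, ZD7 and ZD8. ZD5 was the highest and ZD8 the lowest ovary for both. For HSD17B12 the LLS ovaries ZD5 and ZD7 lay above all 3 SLS ovaries, while ZD8 was 3.39 times below the lowest of the others. HSD17B12 shares 437 exon bases with LOC102168147 on the other strand, which was at 0.228 to 2.39 FPKM. By limma HSD17B4 had a log2 fold change of -0.08 (SE 0.55) and HSD17B12 of -0.21 (SE 0.67), with adjusted p = 0.999 for both. Without ZD8 these became 0.59 (SE 0.29, adjusted p = 0.923) and 0.65 (SE 0.27, adjusted p = 0.757). CYB5A had the same highest and lowest ovary as this pair, and across the 6 ovaries its Pearson correlation was 0.97 with HSD17B4 and 0.99 with HSD17B12, given as a description. Without ZD8 these were 0.98 and 0.95 over 5 ovaries. The luteal marker STAR ran in the same order of ovaries as CYB5A and HSD17B4, from 5418 FPKM in ZD5 to 26.4 FPKM in ZD8. Its log2 fold change without ZD8 was 0.61. The luteal markers CYP11A1 and HSD3B1 were also lowest in ZD8, but had other orders and gave -0.10 and -0.12 without it. The part of luteal cells in these levels was not tested.

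SRD5A1 (chromosome 16, 75309830 to 75335438, minus strand) reduces testosterone and progesterone to their 5-alpha forms. It was at 9.42, 8.73 and 10.8 FPKM in ZD2, ZD3 and ZD12, at 8.27 and 9.41 FPKM in ZD5 and ZD7, and at 4.06 FPKM in ZD8. Apart from ZD8 the highest ovary was 1.31 times the lowest, and the spread of these 5 ovaries was larger than that of 7.13% of tested genes. With ZD8 its spread was larger than that of 56.5%. By limma it had a log2 fold change of -0.43 (SE 0.33, adjusted p = 0.999), and of -0.11 (SE 0.24) without ZD8. The related SRD5A2 was at 0 to 0.313 FPKM.

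The 11-beta hydroxysteroid dehydrogenases act on cortisol and are not part of androgen synthesis. Of these, HSD11B2 gave the largest log2 fold change among the members with all 6 ovaries. Without ZD12 that of HSD17B1 (2.09) was larger in size than that of HSD11B2 (-1.76). HSD11B2 (chromosome 6, 28084087 to 28089256, plus strand) inactivates cortisol to cortisone. HSD11B2 was at 33.1, 24.9 and 81.2 FPKM in ZD2, ZD3 and ZD12, and at 10.02, 19.6 and 1.94 FPKM in ZD5, ZD7 and ZD8. All 3 LLS ovaries lay under the lowest SLS ovary, although the margin between ZD7 and ZD3 was small. The means were 46.4 ± 30.5 FPKM in SLS and 10.5 ± 8.86 FPKM in LLS (SD, n = 3 ovaries each), 4.40 times lower in LLS. This fold leans on ZD12, which alone lay above the SLS mean. The lowest value, in ZD8, rested on 87 reads (95% Poisson interval 1.56 to 2.40 FPKM, counting error only).

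For HSD11B2 the log2 fold change was -2.25 (SE 0.71), with an unadjusted p of 0.013 and an adjusted p of 0.999 by limma, and it did not pass. The exact permutation test gave p = 0.1 (two-sided), the smallest that 3 ovaries against 3 allow. Without ZD8 the log2 fold change came to -1.47 (SE 0.46, adjusted p = 0.451 by limma), and without ZD12 to -1.76 (SE 0.74). Over the 16 alternatives the adjusted p ran from 0.143 to 1. In all 16 the log2 fold change was negative with an unadjusted p between 0.00167 and 0.0467, which are refits of the same ovaries. With groups that do not overlap, leaving out 1 ovary could not turn the sign. The count must be read against the background, where 3.17% of tested genes had every LLS ovary below every SLS ovary, 1.95% had every LLS ovary above, and 1.76% had an unadjusted p under 0.05. HSD11B2 was the only member in the first and last of these sets, and 0 members were in the second.

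Some granulosa genes and some markers of other cell types had a like order, and others did not. The summed level of the 8 granulosa markers was 907, 720 and 1400 FPKM in ZD2, ZD3 and ZD12 and 509, 403 and 312 FPKM in ZD5, ZD7 and ZD8, so that these groups did not overlap either. Most of this sum came from INHA, an inhibin subunit gene, and SERPINE2, a protease inhibitor gene, and both genes had every LLS ovary below every SLS ovary. Of the other 6 genes, FSHR, AMH, FOXL2 and GATM were highest in ZD8, where HSD11B2 was lowest, INHBA in ZD7 and INHBB in ZD12. The mean score of the list, in which each gene counts alike, overlapped between the groups, with -0.45, -0.61 and 1.14 in SLS and -0.16, -0.45 and 0.53 in ZD5, ZD7 and ZD8. Markers of other cell types also had every LLS ovary below every SLS ovary. These were ANPEP of theca (8.09 to 9.62 FPKM in SLS, 1.90 to 5.58 in LLS) and LHCGR of luteal cells (27.8 to 70.5 and 10.4 to 24.2). PECAM1 of endothelium was a further case (87.7 to 105 and 25.4 to 86.0), while the other genes of those lists overlapped between the groups. KRT18 of surface epithelium was also lower in LLS, at low levels (0.237 to 6.30 and 0 to 0.151 FPKM). EPCAM of that list went the other way without overlap (0.312 to 1.285 FPKM in SLS, 2.31 to 27.8 FPKM in LLS), and its other genes overlapped. The part of any of these cell types in the difference of HSD11B2 was not tested.

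HSD11B1 (chromosome 9, 133231451 to 133278396, minus strand) works the other way and regenerates cortisol from cortisone. HSD11B1 was at 6.41, 5.87 and 10.3 FPKM in SLS and at 6.26, 6.20 and 5.39 FPKM in LLS. Its highest ovary (ZD12) was 1.91 times the lowest (ZD8), the narrowest range of a member over all 6 ovaries, and the groups overlapped. Without ZD8 it ranged 1.76-fold, more than SRD5A1 and POR. Limma gave it a log2 fold change of -0.26 (SE 0.29, adjusted p = 0.999), and of -0.20 (SE 0.29) without ZD8. H6PD, which supplies the NADPH for this reaction, was at 13.6, 10.04 and 13.9 FPKM in SLS and at 10.6, 13.7 and 13.2 FPKM in LLS.

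The ratio of HSD11B1 to HSD11B2 was 0.194, 0.236 and 0.127 in ZD2, ZD3 and ZD12, and 0.624, 0.316 and 2.77 in ZD5, ZD7 and ZD8. The ratio was higher in each LLS ovary than in each SLS ovary, and only in ZD8 did HSD11B1 exceed HSD11B2. The mean log2 ratio of FPKM + 1 was -2.33 ± 0.49 in SLS and -0.34 ± 1.34 in LLS (SD, n = 3 each), a difference of 1.99 that came to 1.26 without ZD8 (exact permutation p = 0.2, two-sided, the smallest for 3 against 2). The exact permutation test gave p = 0.1 (two-sided, the smallest possible), and p = 0.5 after Benjamini-Hochberg adjustment over 5 ratios, among them that of CYP19A1 to CYP17A1, which is void since CYP19A1 is at 0 in 5 ovaries. Over the 6 ovaries HSD11B1 varied 1.91-fold and HSD11B2 41.8-fold. The ratio thus largely restates the levels of HSD11B2 and is not a separate result.

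**Figure D3:**
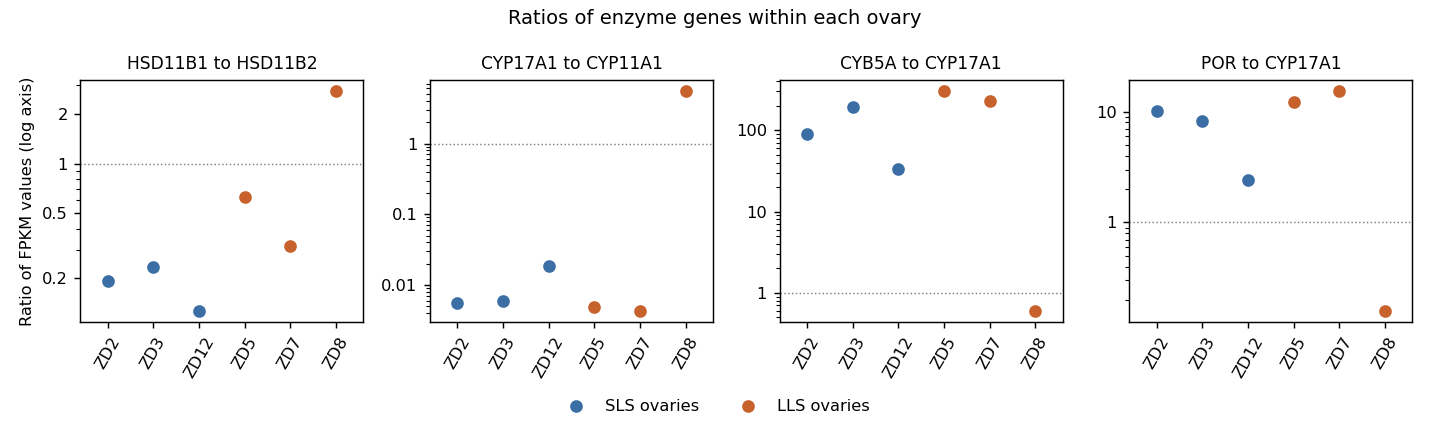
Ratios of FPKM values (log axes) of 4 pairs of genes within each of the 6 ovaries, where points are ovaries, blue for SLS and orange for LLS, and the dotted line marks a ratio of 1. The ratio of HSD11B1 to HSD11B2 is 0.127 to 0.236 in SLS and 0.316 to 2.77 in LLS, and ZD8 lies on the other side of 1 from the other 5 ovaries in each panel.

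Between the litter size groups, 0 of the 9 members in the fit were called (adjusted p below 0.05 with an absolute log2 fold change over 1), as were 0% of all 12260 genes (limma), and 1 member and 216 genes had an unadjusted p under 0.05. By limma voom on the recovered reads the counts were also 0 members and 0 genes, with 1 member and 201 genes at an unadjusted p under 0.05. The median log2 fold change of the 9 members was -0.26, beside 0.02 for all genes tested, and without ZD8 it turned to 0.24, beside -0.10. Without ZD8, 0.167% of 11985 genes and 0 members were called, while 5.92% of genes and 2 of 9 members (HSD11B2 and HSD17B12) had an unadjusted p under 0.05. In those 5 ovaries the groups did not overlap for 3 of 9 members, HSD11B2 and CYP17A1 being lower in LLS and HSD17B12 higher, beside 11.5% of all genes lower and 7.53% higher.

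**Figure D4:**
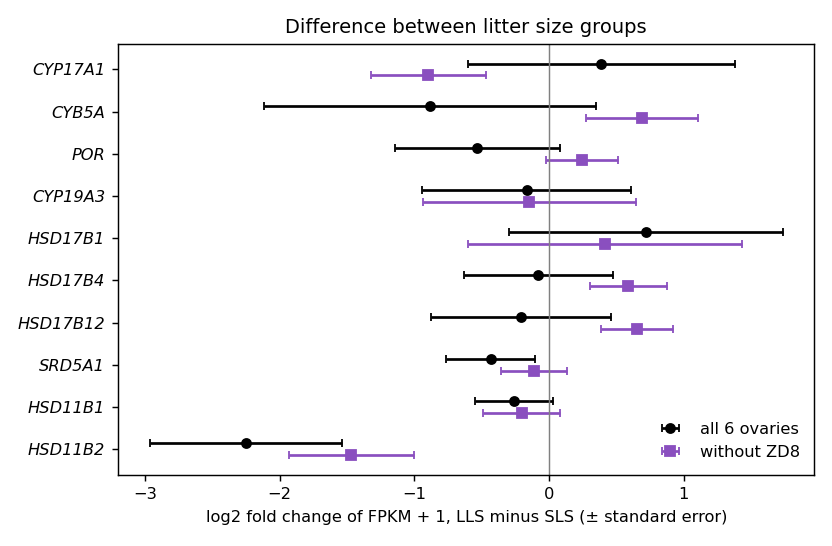
Log2 fold change of FPKM + 1 (LLS minus SLS, horizontal axis) of CYP19A3 and of 9 members by limma, with bars for the standard error, in black with all 6 ovaries and in purple without ZD8. HSD11B2 stays below 0 in both fits (-2.25 and -1.47), and CYP17A1, CYB5A, POR, HSD17B4 and HSD17B12 change sides without ZD8.

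ZD8 was the lowest ovary for 7 of the 9 members (CYB5A, POR, HSD17B4, HSD17B12, SRD5A1, HSD11B1 and HSD11B2) and the highest for 1 (CYP17A1). Over all genes tested, 26.3% were lowest and 44.6% highest in ZD8. The ovary also changed the order of the levels per length. In ZD2 the order ran from CYB5A (923 FPKM) over POR (104), HSD17B12 (72.4), HSD17B4 (54.9) and HSD11B2 (33.1) to CYP17A1 (10.4), SRD5A1 (9.42), HSD17B1 (6.70), HSD11B1 (6.41) and CYP19A1 (0). In ZD8 it ran from CYP17A1 (117 FPKM) over CYB5A (70.2), HSD17B1 (40.2), HSD17B4 (23.8), HSD17B12 (20.4) and POR (18.7) to HSD11B1 (5.39), SRD5A1 (4.06), HSD11B2 (1.94) and CYP19A1 (0). HSD17B4, HSD17B12 and POR lay within the spread of the ovaries of each other in both groups, and SRD5A1 and HSD11B1 were close neighbours in the LLS group (7.25 ± 2.82 and 5.95 ± 0.484 FPKM).

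ZD12 was the highest ovary for 4 members, HSD17B1, SRD5A1, HSD11B1 and HSD11B2, and second to ZD8 for CYP17A1. CYP19A3 was also highest there. In all genes tested 14.3% were highest in ZD12. The theca and granulosa scores of ZD12 were 0.66 and 1.14, each above those of the other SLS ovaries (-0.47 to -0.22 and -0.61 to -0.45). In ZD8 the theca score was higher still (1.51) and the granulosa score was 0.53, yet SRD5A1, HSD11B1 and HSD11B2 were lowest there. Of the theca list, RAMP2 (54.4 FPKM) and ANPEP (9.16 FPKM) in ZD12 were below their levels in ZD2 (76.5 and 9.62 FPKM). The part of follicle cells in these levels was not tested.

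The neighbours of the members in the steroid pathway were given by lists of 63 names, of which 48 were in the table and 32 passed the filter. Of these, 0 were called between the groups and 0 had an unadjusted p under 0.05 by limma, while 1 was above and 1 below in every LLS ovary, beside 1.95% and 3.17% of all genes tested. The latter was FDX1, the ferredoxin that feeds electrons to CYP11A1, with 589, 589 and 537 FPKM in SLS and 516, 506 and 34.1 FPKM in ZD5, ZD7 and ZD8 (log2 fold change -1.45, SE 0.97, limma adjusted p = 0.999, and -0.16 without ZD8). The former was the steroid sulfatase gene STS, named after its values were seen, with 0.627 to 1.24 FPKM in SLS and 1.26 to 2.24 FPKM in LLS. Of the 9 genes from cholesterol to progesterone, 7 were lowest in ZD8, with a median log2 fold change of -1.45 that came to -0.12 without ZD8. STAR, the cholesterol carrier, was at 26.4 FPKM in ZD8 and at 2542 to 5418 FPKM in the others, and HSD3B1, which makes progesterone, at 16.8 against 2938 to 3707 FPKM.

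Among the other dehydrogenases and reductases, 11 of the 27 names passed the filter and 7 of these were lowest in ZD8. HSD17B7, an enzyme of cholesterol synthesis that can also reduce estrone, was at 48.7, 47.9 and 18.3 FPKM in SLS and at 54.1, 72.7 and 12.2 FPKM in ZD5, ZD7 and ZD8 (log2 fold change 0.06, SE 0.66, limma adjusted p = 0.999). Without ZD8 both LLS ovaries were above the SLS ovaries, with a log2 fold change of 0.82 (limma adjusted p = 0.926). HSD17B2, which inactivates estradiol and testosterone, did not pass the filter, with 0.0141 to 0.166 FPKM in SLS and 1.41, 1.11 and 0.0531 FPKM in ZD5, ZD7 and ZD8. HSD17B3, the enzyme of testosterone synthesis in testis, was at 0.103 FPKM or below. Of the 7 receptor genes 6 passed, with 4 highest in ZD8.

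The genes most like CYP17A1 over the 6 ovaries, by Pearson's r of log2(FPKM + 1) and outside the members, were SALL2, KLF15, MOB3B, LOC100510904 and DNM1 (r = 0.998 to 0.999). A high r is common here, since 2249 tested genes were over 0.9, and ZD8 weighs on every one of them. Over the 5 ovaries without ZD8 the closest were DAPK1, KLF15, SALL2, IFT22 and ZMIZ1, of which 2 were in the first list. For HSD11B2 the closest were HADH, A4GALT, DUSP3, SPAG5 and LOC110255205 (r = 0.982 to 0.991, with 261 genes over 0.9). A4GALT was at 26.1, 17.1 and 50.9 FPKM in SLS and at 12.1, 20.2 and 4.33 FPKM in ZD5, ZD7 and ZD8. Without ZD8, 0 of these 5 were among the 5 closest to HSD11B2. CYP19A1 had no pattern to match, and for CYP19A3, taken in its place after the values were seen, the closest were LOC100515290, RIPOR2, NPR3, COQ7 and FDXACB1 (r = 0.940 to 0.965, with 17 genes over 0.9). Without ZD8, 0 of these 5 were among the 5 closest to CYP19A3.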

How the data were processed

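Total RNA of 6 ovaries was depleted of ribosomal RNA, made into libraries with the second strand removed and sequenced. Reads were mapped to Sscrofa11.1 with HISAT2, per the submitters' processing notes, and the authors deposited FPKM values per gene symbol. The counting program is not given in the sources used here. All 6 columns were used, and the miRNA table of the same ovaries was not used here.

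From FPKM and the length of a gene's longest RefSeq transcript, whole reads came out for 23477 of 23564 genes detected (99.6%, tolerance 0.001 reads). The test across all genes was limma 3.58.1 (R 4.3.3) with a variance trend on log2(FPKM + 1), a scale that understates changes of low genes. Genes with at least 1 FPKM in 3 libraries entered it (12260), p-values were adjusted by Benjamini-Hochberg over all of them, and calls required adjusted p below 0.05 together with a log2 fold change beyond 1 in either direction. SE is the standard error from this fit. It replaced the study's test, which needs counts, and limma's voom on the recovered reads was an alternative. Single ratios were tested by exact permutation. The script was tested on simulated data. Cell type scores are means of log2(FPKM + 1) centred per gene. The text names all members, pathway genes set by list, the pathway genes at 10 FPKM or more whose groups do not overlap, and the 5 genes most like CYP17A1, HSD11B2 and CYP19A1, for which CYP19A3 was taken. STS was named outside this rule, after its values were seen. The members, lists and alternatives were chosen with earlier results of these data known. CYP19 sequences and positions were read from the Sscrofa11.1 genome and RefSeq annotation (samtools 1.23.1, Biopython 1.88). The genes closest to HSD11B2 without ZD8 are not reported here by name.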

Additional observations from a re-analysis of the deposited data

How the results depend on the processing

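The direction for HSD11B2 (-2.25) held in all 16 alternatives. It was between -2.87 and -1.47 when 1 ovary was omitted, and -1.39 with median centring without ZD8. With all 6 ovaries it was between -2.45 and -1.83. Since the groups of HSD11B2 do not overlap, leaving out 1 ovary, array weights or another pseudocount could not turn its sign. The alternatives for the filter, the variance trend and the fold change threshold leave the log2 fold change as it is. The held direction is therefore no separate evidence for a difference. The direction of SRD5A1 and HSD11B1 also held in sign, but came near 0. The values ran from -0.63 to -0.035 for SRD5A1 and from -0.40 to -0.041 for HSD11B1. The count of genes called, 0, became 13 with limma's array weights, which gave ZD8 a weight of 0.135, 12 with median centring without ZD8 (chosen after seeing the data), and 0 to 20 with each ovary left out (20 without ZD8). The count of members called was 0 throughout. With array weights the log2 fold changes turned to -1.06 for CYP17A1, -0.32 for HSD17B1, 0.62 for HSD17B4, 0.68 for HSD17B12, 0.70 for CYB5A and 0.19 for POR. With median centring without ZD8 they were -0.82 for CYP17A1, 0.67 for HSD17B4, 0.73 for HSD17B12, 0.77 for CYB5A and 0.32 for POR. With each ovary left out they ran from -0.90 to 1.04 for CYP17A1, -0.11 to 2.09 for HSD17B1, -0.54 to 0.59 for HSD17B4, -0.66 to 0.65 for HSD17B12, -1.79 to 0.69 for CYB5A, -0.99 to 0.24 for POR and -0.78 to 0.57 for CYP19A3. The log2 difference of CYP19A1 to CYP17A1 ran from -1.03 to 0.91, but with CYP19A1 at 0 in 5 ovaries it reflects CYP17A1 and the pseudocount alone and says nothing of aromatase. The other ratios ran from -0.80 to 4.25 for CYP17A1 to CYP11A1, -2.04 to 1.14 for POR to CYP17A1, -2.81 to 1.59 for CYB5A to CYP17A1, -1.81 to 0.75 for CYP19A3 to CYP17A1 and 1.26 to 2.58 for HSD11B1 to HSD11B2. Array weights shifted the median of all genes to -0.12, and the cause of these changes was not tested. Rescaling to an equal sum moved 0 of 20 group means by over 1 SD. No paired analysis was possible because the 6 ovaries come from different sows, and the labels give no number that ties an ovary of one group to one of the other.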
